A study of Oniscidea with 6 samples.

Results

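Molecular motors are proteins that spend ATP to move along the cytoskeleton, and the genes described here are the kinesins, dyneins and unconventional myosins in a comparison of rolling with stretching woodlice. The members are all rows of the deposited table whose symbol begins with Kif, Klc, Dnah, Dync or Myo followed by a digit, or with Dynl. This gives 95 of 24421 features, namely 44 in the kinesin class, 27 in the dynein class and 24 in the myosin class. The kinesin class includes 3 rows that are not motor genes: Kif1bp, which names a kinesin-binding protein, Kif16bos, which names an antisense transcript, and Kif4-ps, which names a pseudogene. Poly(A) RNA of untreated fresh tissue of Oniscidea, the terrestrial isopods, was sequenced in a rolling and a stretching group of 3 samples each. Species, tissue, sex and stage are not in the labels. Nor is it stated that each sample was a different animal, and the p-values below then reflect the spread between the 3 samples alone, which can be technical. Each symbol is a mouse name to which reads were assigned, with the mouse build mm10 named in the submitters' processing notes, and not a known woodlouse orthologue. Reads of near-identical mouse copies, such as Dnah7a and Dnah7b, Kif4 and Kif4-ps, or the Dynlt1 genes, may have been split or assigned arbitrarily by the counting.

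Kinesins walk on microtubules, most of them toward the plus end, and carry vesicles, organelles and ciliary cargo or act on the mitotic spindle. Kinesin light chains link the conventional kinesin to its cargo. Cytoplasmic dynein 1 moves toward the minus end in the cytoplasm, cytoplasmic dynein 2 returns cargo from the tip of the cilium, and the axonemal dyneins are the arms that bend motile cilia and flagella. Unconventional myosins move on actin filaments and work in membrane traffic, at the cell cortex and in actin protrusions, whereas the sarcomeric myosins that contract muscle are not among these members. The roles given below are those of the mammalian proteins.

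The libraries held 403971 to 1122154 counted reads, of which motor genes took 0.140% to 0.432%, or 954 to 2329 reads per library. Of the 95 members, 86 had a read in any library, 36 had reads in all 6 libraries, and 9 had none. Values are normalised read counts, that is, reads divided by a size factor per library, and 1 read was worth 0.527 to 1.22. Rolling 3 had 79.5% of its reads on the 20 features with the highest mean value, against 40.1% to 67.2% in the other libraries. Its values summed to 1219550, against 284281 to 602844 in the others, and so weighed most in that mean. Part of its share thus follows from how the 20 features were chosen. A mean of at least 10 over the 6 libraries was required for testing, and 31 members (32.6%) reached it, against 12.1% of all features. The member just inside this limit had a mean of 10.04 and the one just outside it 9.52. The tested members had a median mean of 18.2, against 20.7 for all tested features, and rested on 67 to 1552 reads each.

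In rolling, 9 of the 31 tested motor genes rose and 10 fell, by limma with Benjamini-Hochberg (BH) adjustment over the 2948 tested features. The share called was 61.3%, against 75.2% of all tested features, 37.8% being higher and 37.4% lower, and no test of this difference in share was made. Each class held genes that moved in opposite directions. Among kinesins 4 rose and 3 fell of 11 tested, among dyneins 3 rose and 3 fell of 8, and among unconventional myosins 2 rose and 4 fell of 12. The median log2 fold change was 0.09, -0.18 and 0.04 in these classes and 0.10 over all tested features. A positive fold change means higher in rolling, taken as a difference of log2(value + 1), so that changes of genes with few reads are understated. Regardless of sign, called motor genes had a median log2 fold change of 3.77, against 3.70 for all called features. For 19 of the 31 genes there was no overlap between rolling and stretching values, or 61.3%, against 78.7% of all tested features. In these bulk samples, fewer cells of a type and less RNA per cell cannot be told apart.

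**Figure D1:**
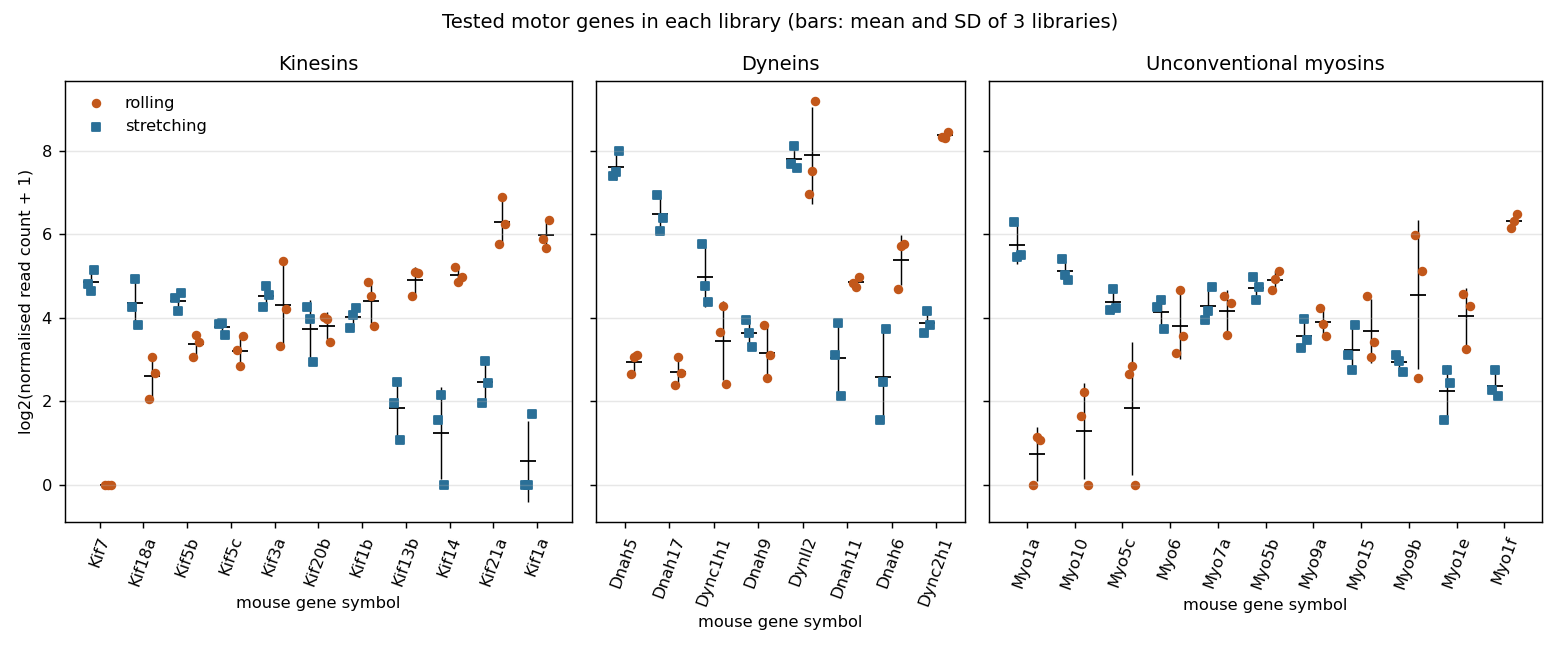
Normalised read counts of 30 tested motor genes in each library, on the log2(value + 1) scale, with circles for rolling, squares for stretching, and bars for the mean and SD of 3 libraries. Within each class the genes run from those lower in rolling, such as Kif7, Dnah5 and Myo1a, to those higher in rolling, such as Kif1a, Dync2h1 and Myo1f.

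Dync2h1 (mouse Entrez gene 110350), the heavy chain of the dynein of retrograde ciliary transport, was the dynein with the largest increase among those tested. Its normalised read count was 319, 318 and 352 in rolling 1 to 3 and 11.5, 17.0 and 13.3 in stretching 1 to 3. The rolling samples all lay above the stretching samples, and the spread within each group was small beside the gap. Its log2 fold change was 4.49 (SE 0.32; limma BH-adjusted p 3.2e-06). The light intermediate chain of this dynein, Dync2li1, was its only other chain under the symbol rule. It had a mean of 0.938 and was not tested.

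The heavy chain of cytoplasmic dynein 1, Dync1h1 (13424), which drives most minus-end transport in the cytoplasm, went the other way. It stood at 11.6, 18.4 and 4.35 in rolling 1 to 3 and 53.7, 26.0 and 19.9 in stretching 1 to 3, so that the highest rolling and the lowest stretching sample were close. The log2 fold change was -1.52 (SE 0.57; limma BH-adjusted p 0.035). Its adjusted p rose above 0.05 in 4 of the 6 fits without 1 library, to 0.152 without stretching 1, 0.113 without rolling 3, 0.079 without stretching 2 and 0.072 without rolling 1. It was 0.067 by DESeq2, 0.054 with no filter and 0.076 with scaling to library totals. The intermediate and light intermediate chains of this motor had means of 1.44 to 7.05 and were not tested. Of these, Dync1i1 had 38 reads in rolling and 13 in stretching, while Dync1i2, Dync1li1 and Dync1li2 had 1 or 2 reads in rolling and 7 to 9 in stretching.

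Among dynein light chains, Dynll2 (68097), a small dimer that also binds many proteins outside dynein, was the only one of 9 that was tested. Its values were 124, 181 and 585 in rolling 1 to 3 and 206, 275 and 191 in stretching 1 to 3, and the groups overlapped. The log2 fold change was 0.10 (95% interval -1.17 to 1.37; limma BH-adjusted p 0.88), and -0.55 without rolling 3, the library with the highest value. The 4 Dynlt1 copies had 1 read in all, and Dynll1, close to Dynll2 in sequence, had 4 reads in all.

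Axonemal dynein heavy chains moved in both directions, with 2 rising and 2 falling of 5 tested. Dnah5 (110082), a heavy chain of the outer arm, stood at 5.27, 7.35 and 7.61 in rolling 1 to 3 and 168, 179 and 253 in stretching 1 to 3. Dnah17 (69926), an outer arm chain of sperm flagella, showed the same order, with 4.22, 7.35 and 5.43 in rolling and 123, 66.8 and 83.1 in stretching. For both genes, every stretching sample lay far above every rolling sample. Their log2 fold changes were -4.69 (SE 0.35; limma BH-adjusted p 3.5e-06) and -3.77 (SE 0.39; limma BH-adjusted p 2.3e-05).

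Dnah6 (330355), a chain of the inner arms, was higher in rolling, at 24.8, 51.4 and 53.3 against 1.92, 4.53 and 12.2 in stretching 1 to 3. Dnah11 (13411), a further outer arm chain, stood at 27.4, 25.7 and 30.4 in rolling and 7.67, 13.6 and 3.32 in stretching. In both cases the lowest rolling sample exceeded the highest stretching sample. The log2 fold change was 2.81 for Dnah6 (SE 0.60; limma BH-adjusted p 0.0021) and 1.82 for Dnah11 (SE 0.49; limma BH-adjusted p 0.0077), and under library-total scaling the adjusted p of Dnah11 was 0.060. Dnah9, also of the outer arm, averaged 8.56 ± 4.22 in rolling against 11.5 ± 2.76 in stretching (SD, n = 3). Its log2 fold change of -0.46 had a 95% interval from -1.50 to 0.58. Outer arm chains were thus found among those that rose, those that fell and those that did not pass the test.

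All 11 axonemal heavy chains in the table had reads, and 9 had reads in every library. Of the 6 with a mean under 10, Dnah10 had 48 reads in rolling and 7 in stretching, Dnah8 had 37 and 7, Dnah7b had 19 and 7, and Dnah2 had 15 and 11. Dnah7a had 26 reads in rolling and 1 in stretching, giving a read ratio, adjusted for depth, of 20.2 (95% counting interval 3.33 to 829.9). Summed over the 11 genes, the axonemal heavy chains averaged 131.8 ± 9.12 in rolling against 329 ± 48.0 in stretching (SD, n = 3). Most of the sum in stretching came from Dnah5 and Dnah17. The remaining axonemal heavy chains, when summed, had the opposite order and were higher in every rolling library.

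**Figure D2:**
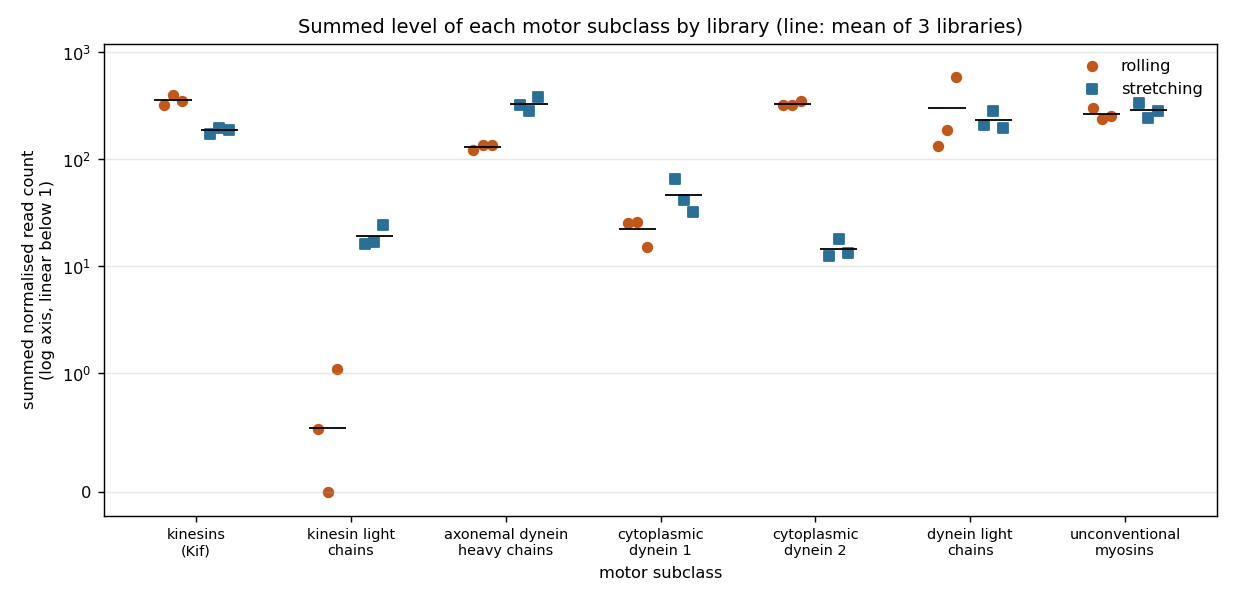
Summed normalised read counts of each motor subclass in each library on a log axis that is linear below 1, with circles for rolling, squares for stretching and lines for the mean of 3 libraries. The kinesin light chains, axonemal heavy chains and cytoplasmic dynein 1 were higher in every stretching library. For the axonemal heavy chains this order rested on Dnah5 and Dnah17. The Kif rows and cytoplasmic dynein 2, the latter nearly all Dync2h1, were higher in every rolling library. The dynein light chains and myosins overlapped.

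Among the 11 tested kinesins, those that rose in rolling were Kif1a, Kif21a, Kif14 and Kif13b. Kif1a (16560), which carries synaptic vesicle precursors along axons, stood at 58.5, 50.2 and 80.4 in rolling 1 to 3, and of the stretching samples it was seen in stretching 3 alone, at 2.22. It rested on 226 reads in rolling and 2 in stretching, giving a read ratio of 88.0 (95% counting interval 24.1 to 731). The fitted log2 fold change was 5.41 (SE 0.54; limma BH-adjusted p 1.8e-05). Its paralogue Kif1b, which carries mitochondria and synaptic vesicle precursors, had 27.9, 22.0 and 13.0 in rolling and 12.5, 15.9 and 17.7 in stretching. These overlap, and the log2 fold change of 0.38 had a 95% interval from -0.55 to 1.31. Kif1c had a mean of 1.23 and was not tested.

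Kif21a (16564), a kinesin that restrains microtubule growth, had values of 53.2, 118 and 75.0 in rolling 1 to 3 and 2.87, 6.79 and 4.43 in stretching 1 to 3. Kif14 (381293), which acts at the midbody in cytokinesis, stood at 36.4, 28.2 and 30.4 in rolling and at 1.92, 3.40 and 0 in stretching. Kif13b (16554), a vesicle motor related to Kif1a, stood at 22.1, 33.1 and 32.6 in rolling and at 2.87, 4.53 and 1.11 in stretching. The 3 genes shared a clear gap between the groups. Their log2 fold changes were 3.85 (SE 0.44), 3.79 (SE 0.57) and 3.07 (SE 0.47), with limma BH-adjusted p 4.4e-05, 0.00024 and 0.00030. Without stretching 3, which had no Kif14 read, the value of Kif14 was 3.18. Their paralogues Kif21b, with a mean of 1.88, and Kif13a, with 10 reads in each group, were not tested.

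Kif7 (16576), a kinesin of the ciliary tip that acts in Hedgehog signalling, had the largest decrease of the 11 tested kinesins. It had no read in any rolling sample and stood at 26.8, 23.8 and 34.3 in stretching 1 to 3, from 80 reads. Against a floor of 3 reads over the rolling group, it was at least 34.3-fold lower in rolling. The fitted log2 fold change, which depends on the pseudocount, was -4.86 (SE 0.36; limma BH-adjusted p 3.5e-06).

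Kif18a (228421), which aligns chromosomes on the spindle, fell from 18.2, 29.4 and 13.3 in stretching 1 to 3 to 3.16, 7.35 and 5.43 in rolling 1 to 3. This is a log2 fold change of -1.74 (SE 0.47; limma BH-adjusted p 0.0073). Kif5b (16573), the widely expressed heavy chain of conventional kinesin, stood at 7.38, 11.0 and 9.78 in rolling and 21.1, 17.0 and 23.3 in stretching. The groups did not overlap, and its log2 fold change was -1.05 (SE 0.38; limma BH-adjusted p 0.029). That call was lost without rolling 1, stretching 1 or stretching 3 (limma BH-adjusted p 0.069, 0.072 and 0.080), with no filter (0.071), with the replicate block (0.068), with scaling to library totals (0.150) and by DESeq2 (0.145).

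The other heavy chains of conventional kinesin did not pass the test or were too low for it. Kif5c, enriched in neurons, averaged 8.47 ± 2.37 in rolling against 12.7 ± 1.40 in stretching (SD, n = 3), with no overlap, a log2 fold change of -0.56 and a 95% interval from -1.45 to 0.34 (limma BH-adjusted p 0.23). Kif5a, also neuronal, had 27 reads in rolling and 4 in stretching. Kif3a, a motor of anterograde ciliary transport, had 8.96, 40.4 and 17.4 in rolling and 18.2, 26.0 and 22.2 in stretching, and its log2 fold change of -0.22 had an interval from -1.42 to 0.98. Its partner Kif3b had a mean of 0.724. Kif20b, a kinesin of cytokinesis, stood at 13.3 ± 3.02 and 13.2 ± 5.93 (SD, n = 3), and its log2 fold change of 0.09 had an interval from -0.97 to 1.14.

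None of the 4 kinesin light chains reached the level for testing. Klc2 had no read in rolling and 21 in stretching, and Klc3 had none and 25, so that they were at least 8.99-fold and 10.7-fold lower in rolling. Klc2 stood at 7.67, 5.66 and 8.86 in stretching 1 to 3, and Klc3 at 7.67, 6.79 and 12.2. Klc1 had 2 reads in rolling and 8 in stretching, and Klc4 had none. The summed light chains came to 0.538 ± 0.543 in rolling and 19.2 ± 4.48 in stretching (SD, n = 3). The sum of the Kif rows had the opposite order, with 358 ± 38.1 in rolling and 186 ± 10.6 in stretching. That order rested on Kif1a, Kif21a, Kif14 and Kif13b, which gave most of the sum in rolling.

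**Figure D3:**
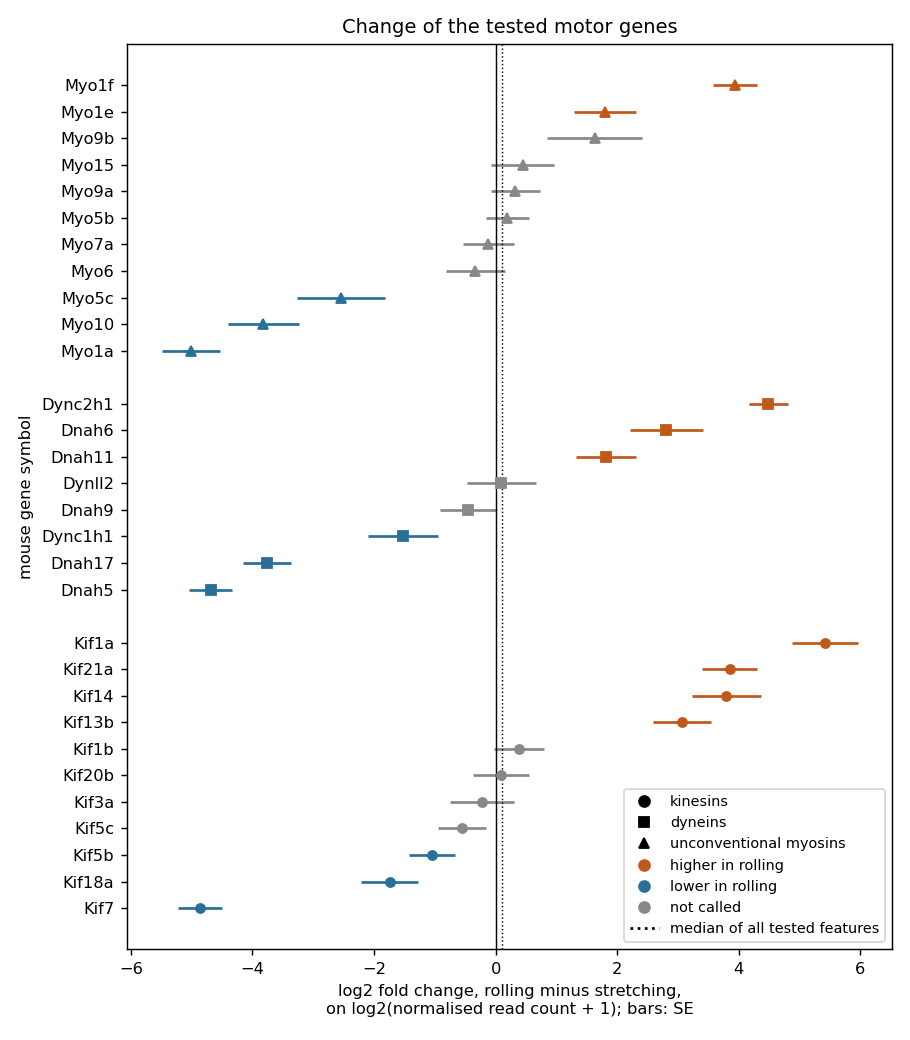
Log2 fold change of rolling minus stretching for 30 tested motor genes, with SE bars, by class and sorted by size. Called genes lie on both sides of 0 in every class, from -5.01 for Myo1a to 5.41 for Kif1a, and the dotted line marks the median of all tested features at 0.10.

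Class I myosins, single-headed motors that tie membranes to actin, had 4 tested members of 8, of which 2 rose and 2 fell. Myo1a (432516), a myosin of the intestinal brush border, stood at 0, 1.22 and 1.09 in rolling 1 to 3 and 77.6, 43.0 and 44.3 in stretching 1 to 3. It had 2 reads in rolling and 159 in stretching, giving a read ratio of 102 (95% counting interval 27.8 to 850.5), and a fitted log2 fold change of -5.01 (SE 0.48; limma BH-adjusted p 1.4e-05). Myo1f (17916), best known in immune cells, went the other way, with 70.6, 78.4 and 88.0 in rolling and 3.83, 5.66 and 3.32 in stretching. The log2 fold change of Myo1f was 3.94 (SE 0.36; limma BH-adjusted p 1.1e-05).

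Myo1e (71602), which acts in endocytosis and at cell adhesions, stood at 22.7, 8.57 and 18.5 in rolling 1 to 3 and 1.92, 5.66 and 4.43 in stretching 1 to 3. It rose by 1.80 (SE 0.51; limma BH-adjusted p 0.010), and its adjusted p was 0.051 under library-total scaling. Among class I genes under the level for testing, Myo1c, Myo1g and Myo1h had means of 1.01 to 2.01, and Myo1d had no read.

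Myo10 (17909), the myosin of filopodia tips, and Myo5c (208943), a myosin of secretory epithelia, fell in rolling. Myo10 stood at 2.11, 3.67 and 0 in rolling 1 to 3 and 41.2, 31.7 and 28.8 in stretching 1 to 3, a log2 fold change of -3.82 (SE 0.59; limma BH-adjusted p 0.00029). Without rolling 3, which had no Myo10 read, it was -3.18. Myo5c stood at 5.27, 6.12 and 0 in rolling and 17.2, 24.9 and 17.7 in stretching, which is a difference of -2.54 on the log2 scale (SE 0.72; limma BH-adjusted p 0.0099). It was -1.63 without rolling 3, which had no read, and its adjusted p was 0.051 without stretching 2.

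The related Myo5b, which serves recycling endosomes, stood at 24.2, 29.4 and 33.7 in rolling and 30.7, 20.4 and 25.5 in stretching. Its log2 fold change of 0.19 had a 95% interval from -0.61 to 0.99 (limma BH-adjusted p 0.64), so the difference was smaller than the spread between libraries. Myo5a, the organelle motor that gives the family its name, had a mean of 6.47, with 14 reads in rolling and 24 in stretching.

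Myo9b, Myo9a, Myo6, Myo7a and Myo15 were tested and not called. Myo9b, a myosin with a GTPase-activating domain, had 62.7, 4.90 and 33.7 in rolling 1 to 3 and 7.67, 6.79 and 5.54 in stretching 1 to 3, so that rolling 2 lay below the stretching samples. Its log2 fold change of 1.63 (limma BH-adjusted p 0.085) was 2.63 without rolling 2, with an adjusted p of 0.0017, and 0.91 without rolling 1. It passed the threshold with the replicate block (0.023), by edgeR (0.011) and by DESeq2 (0.020). Myo9a, its close relative, averaged 14.1 ± 3.57 in rolling against 11.1 ± 3.20 in stretching (SD, n = 3), and its log2 fold change of 0.32 had an interval from -0.60 to 1.24. Myo6, the myosin that moves toward the minus end of actin, had a log2 fold change of -0.34 (interval -1.43 to 0.76). Myo7a and Myo15, both needed for the stereocilia of hair cells, had -0.12 (-1.07 to 0.84) and 0.45 (-0.73 to 1.62).

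Below the level for testing lay 55 members with reads, 32 of them with fewer than 20 reads in all. Of the other 23, 9 (39.1%) had at most 3 reads in one of the groups, against 37.9% of all features in the same range. Among these 9, 6 had their reads in rolling and 3 in stretching. Kif2c, which takes microtubules apart at kinetochores, had 32 reads in rolling and none in stretching, and was at least 8.30-fold higher in rolling. Myo19, a myosin of mitochondria, had 26 and none, and was at least 6.75-fold higher. Kif24, a microtubule-depolymerising kinesin of the centriole, had 30 reads against 1 (ratio 23.4, 95% counting interval 3.88 to 953). The pseudogene Kif4-ps had 30 against 3 (7.79, 2.42 to 39.9), while Kif4 itself, a chromosome-bound kinesin, had 11 in rolling and 25 in stretching. Myo16 had 19 against 3 (4.93, 1.45 to 26.0). Myo3b, a myosin with a kinase domain, had 3 reads in rolling against 34 in stretching, for a ratio of 14.6 (4.58 to 74.1) toward stretching.

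**Figure D4:**
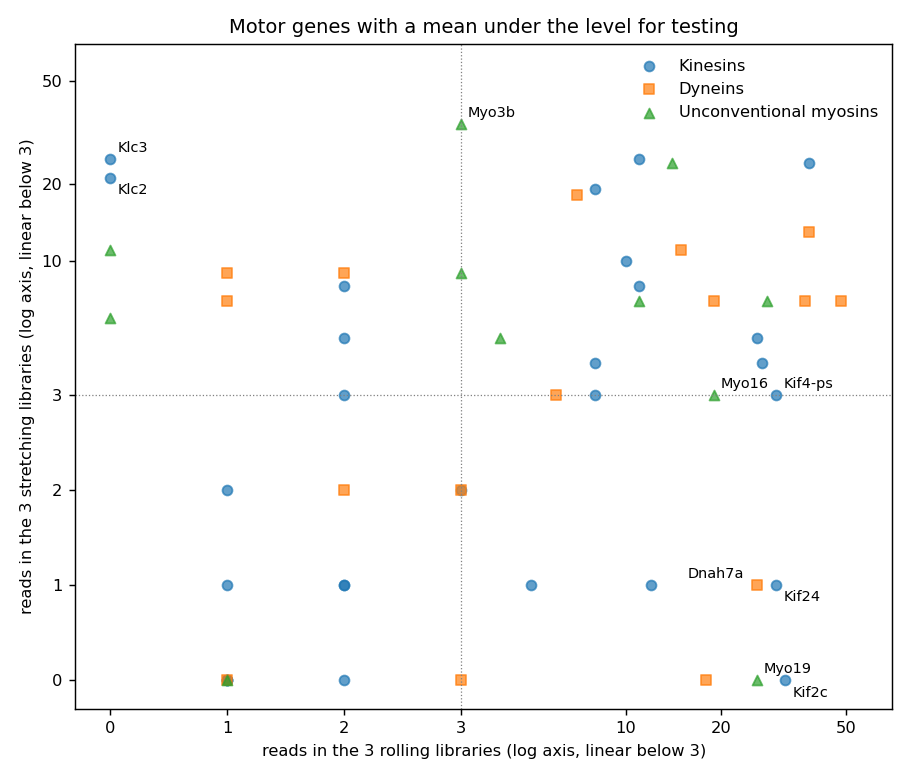
Reads in the 3 rolling libraries against reads in the 3 stretching libraries for the 55 motor genes with reads and a mean under 10, on log axes that are linear below 3. The named genes have at least 20 reads and at most 3 in one of the groups, with Klc2, Klc3 and Myo3b on the stretching side and Kif2c, Myo19, Kif24, Dnah7a, Kif4-ps and Myo16 on the rolling side.

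In the authors' deposited table, 67 members had an adjusted p and 27 of them (40.3%) were below 0.05, against 37.2% of all features with an adjusted p there. By the sign in the authors' deposited table, 15 of these members were higher and 12 lower in rolling, against 18.7% and 18.5% of all features with an adjusted p. Of the 19 genes called here, 17 were also below 0.05 in the authors' deposited table, the exceptions being Dync1h1 and Kif5b, and Myo9b was below 0.05 there but not here. The other 9 members called in the authors' deposited table were under the level for testing here. They are Dnah10, Dnah7a, Kif24, Kif2c and Myo19, higher in rolling, and Klc2, Klc3, Myo18a and Myo3b, lower in rolling. In the authors' deposited table the log2 fold change of Dnah10 was 2.53 (adjusted p 0.022) and that of Myo18a, a myosin of the Golgi and cortex, was -4.60 (adjusted p 0.0498). Myo18a rested on few reads, with 0 in rolling and 11 in stretching.

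Genes that work with the motors gave few tested members. Of 97 listed symbols, 92 were in the table, 78 had reads and 16 were tested, of which 5 rose and 5 fell, a share called of 62.5% against 75.2% of all tested features. The list of dynein cargo adaptors had 5 tested members. Hook3, which ties dynein to vesicles, rose by 1.24 (SE 0.48; limma BH-adjusted p 0.042), and Ccdc88a by 1.88 (SE 0.52; limma BH-adjusted p 0.0091). The call of Hook3 was lost without any 1 library other than rolling 3 (adjusted p 0.069 and 0.101 without rolling 1 and 2, and 0.120, 0.095 and 0.087 without stretching 1 to 3). It was also lost with TMM scaling (0.053), library-total scaling (0.221), no filter (0.075) and by DESeq2 (0.051). Nin, a centrosomal adaptor, was not called (limma BH-adjusted p 0.056, and 0.038 without stretching 2). Rab11fip3, which joins dynein to recycling endosomes, fell from 162, 54.3 and 87.5 in stretching 1 to 3 to 1.58, 3.67 and 5.43 in rolling 1 to 3, a log2 fold change of -4.44 (SE 0.52; limma BH-adjusted p 4.9e-05). Ccdc88c had no read in rolling and 78.6, 5.66 and 14.4 in stretching, at least 42.8-fold lower in rolling, with stretching 1 holding most of the signal. Its fitted log2 fold change was -4.33, which became -3.34 when stretching 1 was left out and -5.13 when stretching 2 was.

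For dynactin, the complex that activates dynein, no subunit was tested. Dctn1 had 28 reads in rolling and none in stretching, whereas Dctn2 had none and 21, at least 7.27-fold higher and 8.99-fold lower in rolling. Pafah1b1, the dynein regulator known as Lis1, had a log2 fold change of 0.74 (SE 0.67; limma BH-adjusted p 0.34), and 0.05 without rolling 3. Neither tested kinesin adaptor was called, Trak2 with -0.97 (SE 0.65) and Plekhm2 with -0.43 (SE 0.56), but Trak2 stood at -1.76 without stretching 3 (adjusted p 0.0076) and passed by edgeR (0.044). Among partners of myosins, the small GTPase Rab11a, a marker of recycling endosomes, had 72 rolling reads against 1 stretching read (ratio 56.1, 95% counting interval 9.75 to 2245). Its effector Rab11fip2, which binds Myo5b, fell by 2.47 (SE 0.54; limma BH-adjusted p 0.0024), and the stereocilia cadherin Pcdh15 by 2.08 (SE 0.58; limma BH-adjusted p 0.0094). The value of Pcdh15 was -2.72 without rolling 1, and its adjusted p was 0.052 without stretching 2. The light chain Myl12a averaged 164 ± 46.1 in rolling against 125 ± 41.2 in stretching (SD, n = 3) and was not called.

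Of the list of axonemal dynein intermediate and light chains and assembly factors, 3 genes were tested and 3 were called, a number too small to set apart from the 75.2% called over all tested features. Dnal1, a light chain of the outer arm, had 14.2, 22.0 and 22.8 in rolling 1 to 3 and 0, 2.26 and 2.22 in stretching 1 to 3, a log2 fold change of 3.21 (SE 0.54; limma BH-adjusted p 0.00050). Dyx1c1, which helps to assemble dynein arms, rose by 2.78 (SE 0.67; limma BH-adjusted p 0.0042). Spag1, another assembly factor, had 2 reads in rolling and 506 in stretching, giving a read ratio of 325 (95% counting interval 89.5 to 2691), and stood at 73.8, 159.6 and 319 in stretching 1 to 3. Like the heavy chains, these genes moved in both directions.

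Markers of cells and structures that use these motors are given by list, and their part in the motor results was not tested. Several of the sums rest on 1 or 2 genes. Of 33 axoneme and cilium markers, 27 had reads and 4 were tested, with 2 higher and 1 lower in rolling. Their summed value was 254 to 401 in rolling and 153 to 187 in stretching, and Rsph1, Rsph9, Spag6l, Tekt1, Tekt2 and Ift43 were at 0. The higher sums in rolling rested on Cfap44 and Cfap52, and the remaining axoneme markers, when summed, did not have this order. Cfap44 averaged 102 in rolling and 9.98 in stretching. Cfap52 averaged 109 in rolling, had no read in stretching, and was at least 92.1-fold higher in rolling. Spag17, the 1 called lower, averaged 8.97 in rolling and 71.5 in stretching. All 12 neuron markers had reads, and the 2 tested were higher in rolling, with sums of 705 to 1263 against 62.3 to 79.3. Most of the rolling sums came from Unc13a, at 490.2, 1139 and 649.9 in rolling 1 to 3. Of 12 mitosis markers, 10 had reads and 4 were tested, with 2 lower in rolling, sums of 73.5 to 92.4 against 159 to 917, and Ccnb2 and Cdc20 at 0. The difference in these sums was mostly that of Bub1, at 15.3, 31.8 and 43.5 in rolling 1 to 3 and 837, 47.6 and 441 in stretching 1 to 3. The other called gene was Mki67, for which stretching 2 held 54 of the 71 stretching reads. Not all mitosis markers had this order: Top2a had 60 reads in rolling and 25 in stretching and was not called, and the untested Mad2l1 had 11 and 2, Aurka 10 and 0, and Cdk1 9 and 0. Of 27 sarcomere markers, 20 had reads and 7 were tested, with 3 higher and 1 lower in rolling. The sarcomere sums, most of them from the actins Acta1 and Actc1, were 16294 to 70579 against 12028 to 15170, and Tnnt1, Tnnt2, Tnni1, Tnni2, Tnni3, Tnnc1 and Mybpc2 were at 0. The higher sums in rolling rested on Acta1, and the remaining sarcomere markers, when summed, did not have this order. Actc1 was not called, at 2789, 4462 and 30567 in rolling 1 to 3 and 7326, 9479 and 6827 in stretching 1 to 3.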

How the data were processed

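The deposited table gives, for each gene in each sample, a signal that the authors made from reads and 1 size factor per sample, judging from the values. The submitters' processing notes list BWA, DESeq2 and mm10 with no version or role. No source used here names the counter. The authors' deposited table adds p-values, adjusted or not, log2 fold changes, and 2 score columns that hold their standard error and test statistic. The columns headed curl and strait were matched to rolling and stretching from what the words mean, with the number as the replicate.

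The smallest value above 0 in a column was taken as 1 read, which gave whole numbers for 100.0% of values, within 1.05e-09. DESeq2 on these reads gave log2 fold changes within 4.1e-05 of the authors' and 3951 calls. Groups were compared with limma 3.58.1 (R 4.3.3) and its trended variance prior on log2(value + 1), two-sided, for features with a mean of at least 10, with Benjamini-Hochberg adjustment over all of them and a threshold of 0.05. Features without reads in a group have a fold bound against 3 reads over the group, and those with 1 to 3 reads a depth-adjusted ratio with a 95% exact counting interval. PCR copies are not independent molecules, so these intervals and floors hold counting error alone. DESeq2 1.42.0 and edgeR 4.0.16 on the reads, other scalings, pseudocounts and filters, a replicate block and leaving out each library were the alternatives. The scripts were tested on simulated data.

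Members and lists were chosen with earlier results of these data known. Every member could be named. All values are given for called members, and members under the filter are named where they have at least 20 reads and at most 3 in a group. Others are named with their reads for context. Some tested genes enter the counts but are not reported here singly. The labels do not say that equal replicate numbers pair samples, and the correlations of same-numbered deviations were 0.021, -0.0066 and 0.0087.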

Additional observations from a re-analysis of the deposited data

How the results depend on the processing

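Of 453 refits of 30 single motor genes, 422 kept direction and side of the threshold, 17 lost a call, 4 gained one and 10 changed sign, none of the last for a called gene. Of the 18 called genes among them, 13 were called in each alternative that tested them, and 15 in each fit without 1 library. The sign changes were those of Dynll2 (-0.089) and Kif20b (-0.0595) with scaling to library totals, Kif20b by edgeR (-0.0591), and, without 1 library each, Dynll2 (-0.55 to 0.56), Kif20b (-0.31 to 0.35), Kif3a (-0.76 to 0.27) and Myo7a (-0.30 to 0.17). Of the partner genes, Plekhm2 (-0.80 to 0.042) changed sign without stretching 1. Scaling to library totals shifted the median over all tested features by -0.16 on the log2 scale.
With no filter, all 18260 features with a read were tested, among them 86 motor genes and 78 partner genes. Of these, 9 kinesins, 7 dyneins, 4 myosins and 11 partner genes were higher in rolling. Lower in rolling were 4 kinesins, 3 dyneins, 5 myosins and 10 partner genes. Over all 18260 features, 2927 were higher and 2846 lower. With a minimum mean of 100, only 3 members and 11.0% of the 2948 features were tested. Of these members, 1 dynein was higher and 1 lower, and no kinesin, myosin or partner gene (0) was called. Among all features tested at this limit, 147 were higher and 137 lower in rolling, which is most of them. By DESeq2, which tests more features, 6 kinesins, 5 dyneins, 4 myosins and 8 partner genes were higher in rolling. It called 4 kinesins, 2 dyneins, 6 myosins and 9 partner genes lower. Over all features by DESeq2, 1989 were higher and 1962 lower. With scaling to library totals 1 myosin was higher. The cause of that last change was not tested.
The replicate block left 3 dyneins, 4 kinesins and 3 myosins higher in rolling and 3, 2 and 4 lower. The numbers do not pair the samples by the labels, and the correlations of same-numbered deviations were 0.021, -0.0066 and 0.0087. The uncalled motor genes had 95% intervals up to 3.54 wide on the log2 scale, and differences within them could not be detected with these libraries. The widest was that of Myo9b, with 1 rolling library far below the others, and Dynll2, with 1552 reads, had one from -1.17 to 1.37.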

Other observations

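Genes of intraflagellar transport, the cargo train that Kif3a and Dync2h1 move in cilia, had few reads and were not tested. Ift27 had 59 reads in rolling and 0 in stretching, at least 15.3-fold higher in rolling, and Ift122 had 26 and 1 (ratio 20.2, 95% counting interval 3.33 to 829.9). Ift74 had 1 read in rolling against 33 in stretching, for a ratio of 42.4 (7.10 to 1724) toward stretching. Among components of the axoneme, Cfap44 rose from 9.98 ± 2.15 in stretching to 102 ± 72.8 in rolling (SD, n = 3), with values of 60.6, 58.8 and 186 in rolling 1 to 3 and a log2 fold change of 3.02 (SE 0.49; limma BH-adjusted p 0.00042). Spag17, of the central apparatus, fell from 92.9, 37.4 and 84.2 in stretching 1 to 3 to 8.43, 9.79 and 8.69 in rolling 1 to 3, a log2 fold change of -2.76 (SE 0.43; limma BH-adjusted p 0.00030). These genes came from the marker lists and were picked from them after their values were seen.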
